A study of Mus musculus with 36 samples.

Results

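The 10 genes described here are the CXC chemokines Cxcl1, Cxcl2, Cxcl3, Cxcl5, Ppbp, Pf4, Cxcl10, Cxcl12 and Cxcl16 and the receptor Cxcr2, taken by symbol from the count tables, where 20720 genes remained after spike-ins and mitochondrial genes were removed. Single cells had been sorted into multi-well plates from the infarcted part of the left ventricle, or from the matching part of sham hearts, of C57BL/6 males aged 8 weeks. The groups were sham surgery at day 1 (4 plates) and day 14 (8 plates as labelled), ischemia-reperfusion (IR), in which the left anterior descending artery was tied off for 1 hour and reopened, with 9 plates at day 1, 7 at day 3 and 3 at day 14, and myocardial infarction (MI), in which the artery stayed tied, at day 3 (5 plates). No allele, transgene or drug differed between the groups, and no sham plate was labelled day 3. The plates are the replicates, some of them share a mouse in a way the labels do not give, and p-values then measure the spread between plates and may be too small. Members were described in wells of at least 1000 UMIs (unique molecular identifiers, each standing for 1 captured transcript). These were 3091 of 13824 wells.

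Chemokines are small secreted proteins that guide leukocytes into injured tissue. Cxcl1, Cxcl2, Cxcl3, Cxcl5 and the product of Ppbp carry the ELR motif and act on Cxcr2, the receptor through which neutrophils are drawn from blood. Cxcl10 is induced by interferon and acts on Cxcr3 of T cells, Cxcl12 acts on Cxcr4 and holds or recruits progenitors and leukocytes, and Cxcl16 is made as a membrane-bound protein that binds Cxcr6. Pf4 and Ppbp are best known as proteins of platelet granules.

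Cxcl5, Ppbp, Pf4, Cxcl3, Cxcl1 and Cxcl2 lie in that order in a cluster on chromosome 5 (GRCm38.p6), between chr5:90759298-90761625 for Cxcl5 and chr5:90903899-90905938 for Cxcl2. Cxcl10 lies farther along the same chromosome (chr5:92346638-92348889), Cxcl12 on chromosome 6 (chr6:117168535-117181368), Cxcl16 on chromosome 11 (chr11:70454389-70459984) and Cxcr2 on chromosome 1 (chr1:74153994-74161246). RefSeq promoters were at hand for 8 of the 10 members. The last 100 bases before the annotated start are shown, 5′ to 3′ on the gene's strand, for 4 ligands of Cxcr2 that rose together at day 1. Capitals mark 2 sets of letters searched on both strands over the 250 bases before each start. The first is GGGAATTTCCC, the longest run that the promoters of Cxcl1, Cxcl2 and Cxcl3 share, which holds a form of the binding sequence of NF-kappaB, a factor that drives inflammatory genes. The second is TATAAA, the letters of the TATA box.
Cxcl1 (chr5:90891145-90891244, plus strand): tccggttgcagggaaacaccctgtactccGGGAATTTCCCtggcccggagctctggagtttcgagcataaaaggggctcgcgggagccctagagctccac
Cxcl2 (chr5:90903799-90903898, plus strand): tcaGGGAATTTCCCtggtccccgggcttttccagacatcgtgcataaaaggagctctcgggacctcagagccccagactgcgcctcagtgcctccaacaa
Cxcl3 (chr5:90786001-90786100, plus strand): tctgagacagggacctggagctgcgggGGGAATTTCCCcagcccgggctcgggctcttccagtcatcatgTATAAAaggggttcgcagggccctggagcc
Ppbp (chr5:90768418-90768517, plus strand): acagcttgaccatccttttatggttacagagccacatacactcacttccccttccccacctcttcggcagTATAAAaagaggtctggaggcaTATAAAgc

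The run GGGAATTTCCC ended 61 bases before the start of Cxcl1, 87 before that of Cxcl2 and 63 before that of Cxcl3. It was held by 14 of 32851 RefSeq promoters of the same length (0.0426%), and since it was read from these 3 genes its presence in them is a description. TATAAA was found in Cxcl3 and Ppbp among the 8 members and in 12.4% of all promoters. A match describes letters and is no measured binding site.

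The wells counted numbered 432 for day 1 sham, 362 for day 14 sham, 492, 608 and 476 for IR at day 1, 3 and 14, and 721 for MI. Their median depth lay between 2308 and 3230 UMIs in the sham and IR groups and was 13120 in MI. MI plates carry their own protocol label, so that the kind of injury, the preparation and the depth cannot be told apart in any comparison with MI. Day 3 IR replicate 2 had no well of this depth. In 5 pairs of plates some wells matched the equally numbered well of a more deeply read plate. All but 1 of these pairs lay within a group. The exception was day 14 sham replicate 2 and day 3 IR replicate 6, with 17 matching wells, 10 of them of at least 1000 UMIs. The shallower wells were left out, and day 14 sham replicates 2 and 7, which matched each other, counted as 1 plate (34 of the wells of replicate 2 matched). Levels are UMI CPM, a gene's UMIs per 1000000 UMIs of nuclear genes in the wells summed. Each transcript gives 1 tag near its 3′ end, so no correction for length was made.

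Cell classes came from clusters built without the 10 members and named from marker lists. The 11 macrophage markers summed to 11685 CPM in macrophage-like cells and the 10 neutrophil markers to 42192 CPM in neutrophil-like cells. Classes also held markers of other classes. Endothelial-like cells held cardiomyocyte markers at 11553 CPM, beside 11942 CPM of endothelial markers. Neutrophil-like cells held macrophage markers at 2982 CPM and fibroblast markers at 2194 CPM. The wells were 20 mural-like, 158 neutrophil-like, 292 fibroblast-like, 450 endothelial-like, 616 macrophage-like and 888 cardiomyocyte-like, with 12 erythrocyte-like and 655 unnamed. Cardiomyocyte markers summed to a median of 37075 CPM per plate in day 1 sham, 2114 in day 1 IR and 1166 in MI, and neutrophil markers to 85.6, 4882 and 943 CPM. The mix of cells thus moved with the groups, and in sums over whole plates fewer cells of a type and less RNA per cell cannot be told apart.

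The members fell into a fibroblast-like, a macrophage-like and an endothelial-like source, with neutrophil-like cells holding the highest level of Cxcl2. Of all UMIs, fibroblast-like cells held 79.8% for Cxcl1 and 93.5% for Cxcl5. Macrophage-like cells held 93.0% for Pf4, 87.0% for Ppbp, 85.1% for Cxcl10, 79.7% for Cxcl16, 73.5% for Cxcl3 and 69.3% for Cxcl2. Endothelial-like cells held 47.9% for Cxcl12, followed by fibroblast-like cells with 33.7%. Cxcr2 had its largest part, 37.0%, in unnamed wells. Because macrophage-like and fibroblast-like wells were deep (median 12258 and 17167.5 UMIs), the shares were also taken with each well scaled to 1000 UMIs, the mean that thinning to this depth would give. Fibroblast-like cells then held 60.8% of Cxcl1 and 73.5% of Cxcl5, and endothelial-like cells 69.3% of Cxcl12. Macrophage-like cells then held 80.4% of Pf4, 75.5% of Cxcl10, 69.4% of Cxcl16, 62.9% of Cxcl3, 61.3% of Ppbp and 33.2% of Cxcl2, of which neutrophil-like cells held 57.3%. The shares are pooled over groups that differ in depth and in their mix of cells. Over plates with at least 30 UMIs of the gene, the SD of the leading class's share was 5.42 points for Cxcl16 (8 plates), 5.66 for Cxcl5 (14 plates), 15.5 for Pf4 (24 plates), 16.4 for Ppbp (15 plates) and 26.6 to 34.8 points for the other members (5 to 27 plates). No test was run between classes.

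**Figure D1:**
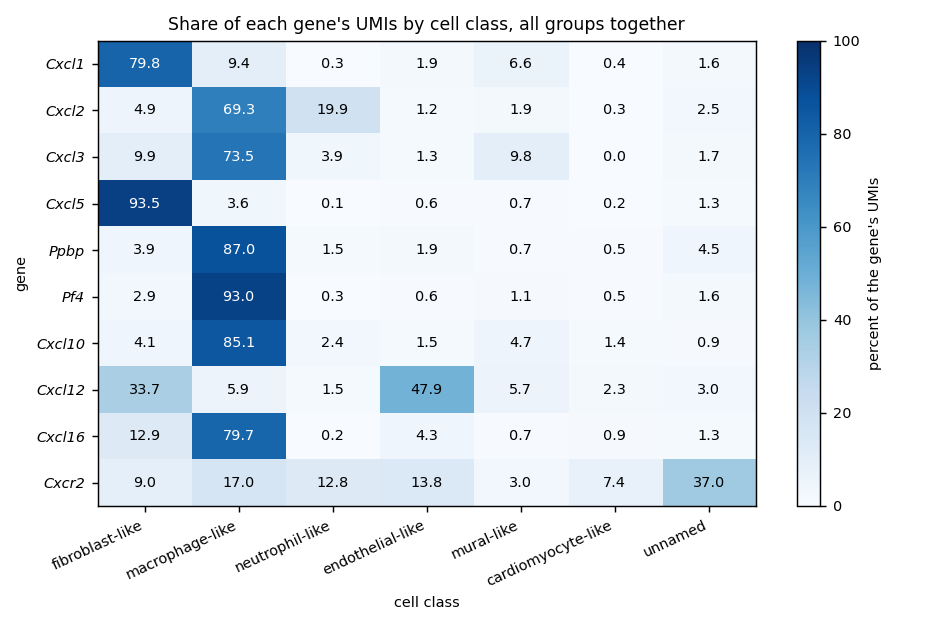
Percent of each gene's UMIs (rows) found in each cell class (columns), all groups together; the number in each cell and its shade give the same percent. Cxcl1 and Cxcl5 are darkest in fibroblast-like cells, 6 ligands in macrophage-like cells, Cxcl12 in endothelial-like and fibroblast-like cells, and Cxcr2 is spread, with 37.0% in unnamed wells.

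On day 1 of IR, the question was which members differed from sham at the same day. Of the 10 members, 6 rose in sums over all cells, where 18.3% of the 9259 genes tested rose and 17.2% fell: Cxcl1, Cxcl2, Cxcl3, Cxcl5, Ppbp and Cxcl10. None fell. The median log2 fold change of the 10 was 3.02, against 0.06 for all genes.

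**Figure D2:**
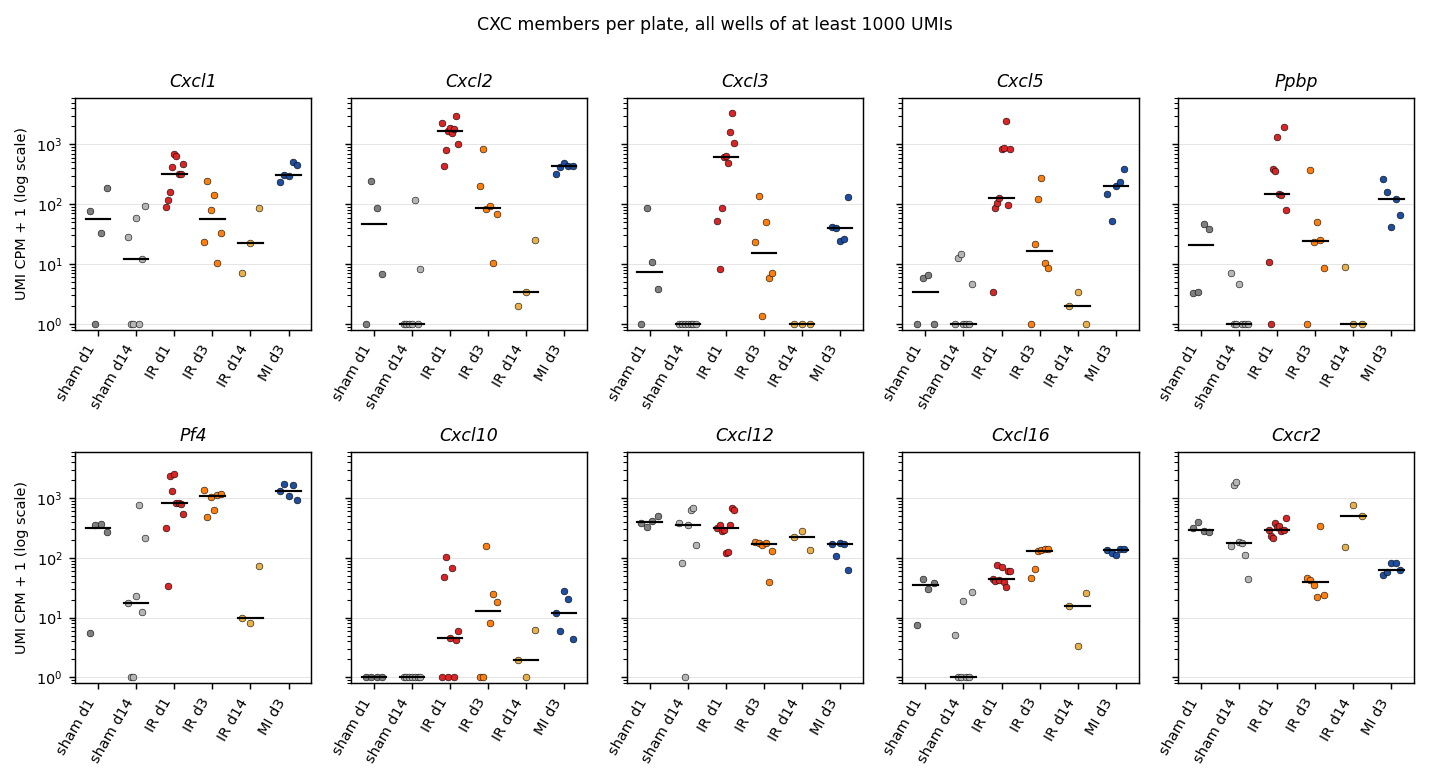
Level of each member per plate in UMI CPM plus 1 on a log scale (1 point per plate) by group, with the group median as a bar; all wells of at least 1000 UMIs. Cxcl2 lies between 430.0 and 3029.8 CPM on the 9 day 1 IR plates, above its 4 day 1 sham plates (0 to 244 CPM), and Cxcl10 is at 0 on every sham plate.

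Cxcl1, Cxcl2, Cxcl3, Cxcl5 and Ppbp are the ligands of Cxcr2. Cxcl2 stood at 0, 244, 87.1 and 5.78 CPM on the day 1 sham plates. On the 9 day 1 IR plates its lowest, median and highest values were 430.0, 1705 and 3029.8 CPM. All 9 IR plates thus lay above all 4 sham plates. The rise was 4.03 ± 0.89 on the log2 scale (SE, adjusted p = 0.000548, edgeR quasi-likelihood test with Benjamini-Hochberg adjustment over all genes, as throughout). Without day 1 sham replicate 2, which held 244 CPM, it was 5.38.

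Cxcl3 stood at 0, 85.2, 9.83 and 2.89 CPM in day 1 sham and at 7.17, 612 and 3378 CPM (lowest, median, highest) in day 1 IR. The groups overlapped, since 2 sham plates lay within the range of IR. The rise was 4.95 ± 1.26 (log2, adjusted p = 0.00262). It was 7.22 without day 1 sham replicate 2 and 4.34 without day 1 IR replicate 8, the plate at 3378 CPM. Cxcl3 had no UMI on the 7 day 14 sham plates or the 3 day 14 IR plates, so no fold is given there.

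Cxcl5 was at 0, 4.73, 5.62 and 0 CPM in day 1 sham and ranged from 2.41 through a median of 124 to 2446 CPM in day 1 IR. All of those plates except replicate 1 (2.41 CPM) lay above every sham plate. The rise was 7.32 ± 1.35 (log2, adjusted p = 5.05e-05). Without day 1 IR replicate 7, which held 2446 CPM, it was 6.60, and without day 1 sham replicate 3 it was 8.12.

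Ppbp was at 2.21, 2.37, 46.4 and 37.6 CPM in day 1 sham and ranged from 0 through 146 to 1972 CPM in day 1 IR. The groups overlapped, IR replicate 2 (0 CPM) lying below every sham plate and replicate 1 (9.63 CPM) within their range. Its rise was 4.19 ± 1.12 (log2, adjusted p = 0.0032), or 4.96 without day 1 sham replicate 3 and 3.54 without day 1 IR replicate 8. Cxcl1, the remaining member of this set, was the least changed. It was at 77.5, 0, 32.3 and 188 CPM in day 1 sham and at 89.1, 325 and 699 CPM (lowest, median, highest) in day 1 IR, with overlap. The rise was 2.02 ± 0.70 (log2, adjusted p = 0.0225), and this call was lost without day 1 sham replicate 2 (1.61, adjusted p = 0.074) or replicate 3 (1.74, adjusted p = 0.090). Without day 1 sham replicate 4 the value was 2.99.

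Cxcl10, the interferon-induced ligand of Cxcr3, had no UMI on any sham plate. In day 1 IR it ranged from 0 through a median of 3.60 to 101.1 CPM and had UMIs on 6 of 9 plates. Against the limit that 3 counts over the day 1 sham group would give, the day 1 IR level was at least 19.5-fold higher, and at least 8.12-fold without day 1 IR replicate 3, which held 72 of the 108 UMIs, or 12.3-fold without day 1 sham replicate 3. It passed the test (adjusted p = 0.0225), but not without day 1 IR replicate 3 (adjusted p = 0.058) or day 1 sham replicate 3 (adjusted p = 0.068).

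The other 4 members were not called at day 1. Pf4 was at 4.43, 350.2, 364 and 269 CPM in day 1 sham and at 32.3, 819 and 2525 CPM (lowest, median, highest) in day 1 IR, a difference of 1.89 ± 0.82 (log2, adjusted p = 0.069). This difference passed without day 1 IR replicate 2 (2.03, adjusted p = 0.039). Cxcl12 differed by -0.48 ± 0.45, Cxcl16 by 0.58 ± 0.38 and Cxcr2 by -0.27 ± 0.71 on the log2 scale. The 95% intervals were -1.35 to 0.40 for Cxcl12, -0.16 to 1.32 for Cxcl16 and -1.67 to 1.12 for Cxcr2.

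At day 14 of IR, 0 of the 10 members were called against day 14 sham, where 0.0216% of genes were called (2 of 9259), and 0 also had an unadjusted p under 0.05 or were called by DESeq2. Cxcl2 was at 0.992, 2.35 and 24.6 CPM on the 3 IR plates and above 0 on 2 of 7 sham plates. Pf4 was at 8.92, 7.06 and 71.2 CPM in IR, within the range of sham (0 to 758 CPM). Intervals were wide: that of Cxcl2 ran from -1.41 to 4.57 on the log2 scale and that of Cxcl1 from -1.60 to 1.74. The median of all genes was 0.20 in this comparison and 0.18 in MI against sham with TMM scaling, and 0.01 and 0.10 with RLE scaling. The difference between the day 1 and the day 14 effect of IR, a test added after the data had been seen, called 0 of 10 members (17.7% of genes were called), with 2 at an unadjusted p under 0.05 and 3 called by DESeq2 (Cxcl3, Cxcl5 and Pf4). Pf4 was called in this test without day 14 IR replicate 3 (4.99, adjusted p = 0.028) or day 1 IR replicate 2 (3.41, adjusted p = 0.0496).

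On day 3, IR and MI were each set against both sham groups, weighted equally, and so share their control plates. In IR, Cxcl2, Cxcl5, Pf4, Cxcl10 and Cxcl16 rose and Cxcl12 and Cxcr2 fell, where 16.3% of genes rose and 12.5% fell. In MI, all 10 members were called, 8 higher and 2 lower, where 31.8% of genes rose and 23.8% fell. The median log2 fold change over the members was 2.57 in IR and 3.32 in MI, against 0.03 and 0.18 for all genes. These medians, and that of day 1, are the same with Cxcl10 set at its lower bound.

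**Figure D3:**
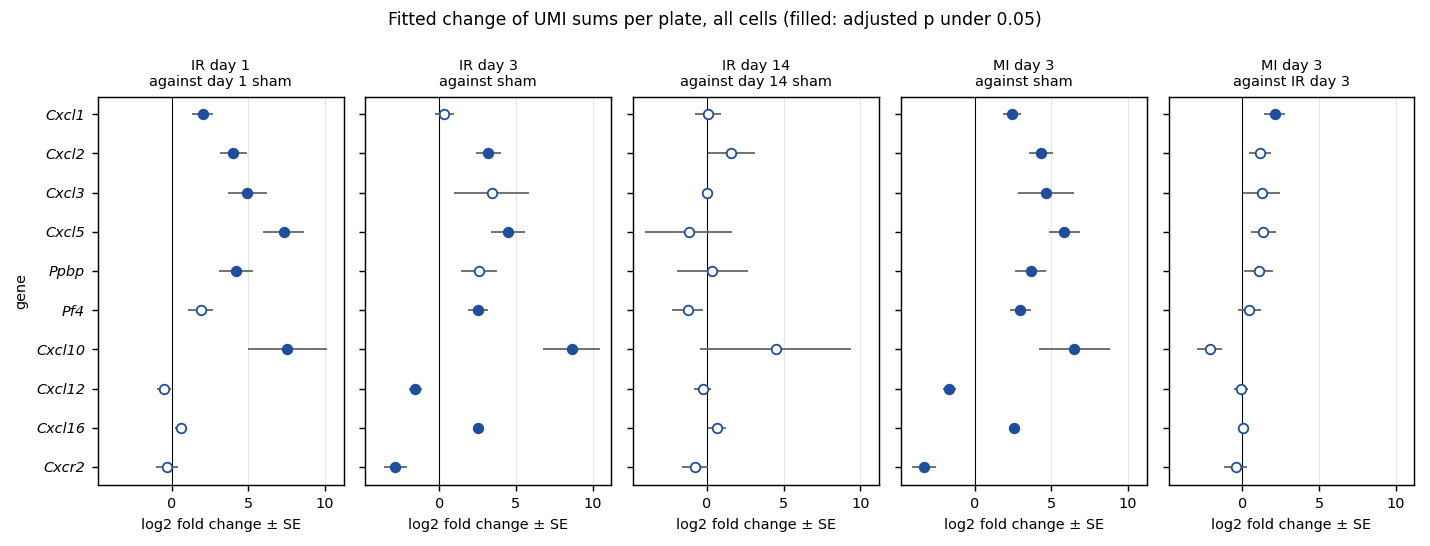
Fitted log2 fold change (points) with its standard error (bars) for each member in sums over all cells, 1 panel per comparison; filled points have an adjusted p under 0.05. At day 1 the 5 ligands of Cxcr2 lie to the right of 0, at day 14 no point is filled, and in both day 3 panels against sham Cxcl12 and Cxcr2 lie to the left. The points of Cxcl10 against sham, where it had no UMI, depend on the prior count of the fit and are no measure of its fold.

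Cxcl16 is a scavenger receptor for oxidised lipid as well as a chemokine. It was at 0 to 25.4 CPM on the day 14 sham plates (median 0) and at 6.64, 42.6, 29.5 and 37.6 CPM in day 1 sham. On the day 3 IR plates it was at 45.3, 131 and 142 CPM (lowest, median, highest), and on the 5 MI plates at 134, 119.7, 112, 137 and 138 CPM. Neither day 3 group overlapped with sham. The medians of both day 3 groups were alike, while 2 IR plates, at 45.3 and 63.0 CPM, lay below every MI plate. The rise was 2.53 ± 0.34 in IR (adjusted p = 9.92e-07) and 2.55 ± 0.33 in MI (adjusted p = 5.27e-08) on the log2 scale, and MI differed from IR by 0.02 (95% interval -0.60 to 0.64). Against day 1 sham alone the rise was 1.85 and 1.87.

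Pf4 had the highest median level of the members in both day 3 groups. The IR plates held 473, 1081 and 1337 CPM (lowest, median, highest) and the MI plates 1312, 1735, 1078, 1630.5 and 927 CPM, against 0 to 758 CPM in day 14 sham and at most 364 CPM in day 1 sham. Only day 14 sham replicate 6, a plate of 10 wells, reached into the range of the day 3 plates. Pf4 rose by 2.54 ± 0.66 in IR (adjusted p = 0.00348) and by 2.97 ± 0.68 in MI (adjusted p = 0.000328) on the log2 scale. Against day 1 sham alone the IR value was 1.74 and was not called (adjusted p = 0.14).

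The ligands of Cxcr2 were spread widely on the day 3 IR plates. Cxcl2 was at 9.52, 87.1 and 840.3 CPM (lowest, median, highest) there and at 316, 423, 489.8, 442 and 441 CPM in MI. The MI plates lay above every sham plate, while the IR plates overlapped with sham. Its rise was 3.19 ± 0.82 in IR (adjusted p = 0.0033) and 4.32 ± 0.80 in MI (adjusted p = 2.06e-05) on the log2 scale. The value of Cxcl2 in IR was 1.94 and not called without day 3 IR replicate 3 (adjusted p = 0.065), 3.89 without day 1 sham replicate 2, and 0.93 against day 1 sham alone (adjusted p = 0.46). In MI, Cxcl2 rose by 4.97 without day 1 sham replicate 2 and by 2.06 against day 1 sham alone.

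Cxcl5 rose by 4.49 ± 1.10 in IR (adjusted p = 0.00222; 3.79 without day 3 IR replicate 5) and by 5.86 ± 1.04 in MI (adjusted p = 1.11e-05) on the log2 scale. Its MI plates held 147, 51.1, 200.1, 239 and 388 CPM, all above every sham plate (at most 13.8 CPM). Cxcl1 was not called in IR (0.33 ± 0.63) and rose by 2.42 ± 0.57 in MI (adjusted p = 0.000512). Ppbp differed by 2.61 ± 1.16 in IR (adjusted p = 0.0867) and rose by 3.66 ± 1.01 in MI (adjusted p = 0.00236), where it was at 267, 160.1, 39.96, 119.6 and 65.5 CPM. The MI call of Ppbp was lost against day 1 sham alone (2.23, adjusted p = 0.093).

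Cxcl3 differed by 3.41 ± 2.42 in IR (adjusted p = 0.301) and rose by 4.66 ± 1.81 in MI (log2, adjusted p = 0.0293), where its plates held 40.7, 39.1, 23.6, 25.6 and 133 CPM. The call of Cxcl3 was lost without MI replicate 5 (3.92, adjusted p = 0.092), without day 14 sham replicate 1 (4.66, adjusted p = 0.057) and against day 1 sham alone (0.84, adjusted p = 0.58), and the value was 5.79 without day 1 sham replicate 2. Cxcl10 in IR was at 0 on 2 plates and at 159, 7.06, 23.8 and 17.1 CPM on the others. In MI it was at 10.8, 4.88, 27.0, 19.2 and 3.47 CPM. Against the limit for 3 counts over both sham groups, the level was at least 113-fold higher in IR and at least 14.4-fold higher in MI. Of the 462 UMIs in IR, 436 were on replicate 4, and without it the level in IR was at least 16.9-fold higher. Cxcl10 passed the test in both (adjusted p = 0.000846 and 0.0181), the MI call being lost against either sham group alone. In day 3 IR, 1 well held 72.7% of the macrophage-like Cxcl10 UMIs, and without replicate 4, the plate at 159 CPM, the adjusted p was 0.027.

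Cxcl12, which acts on Cxcr4, and the receptor Cxcr2 were lower on day 3. Cxcl12 was at 387, 331, 419 and 500.01 CPM in day 1 sham and at 0, 347 and 682 CPM (lowest, median, highest) in day 14 sham. It was at 38.1, 169.5 and 181 CPM in day 3 IR and at 167, 107, 174, 169 and 62.1 CPM in MI. All day 3 plates lay below all day 1 sham plates and within the range of day 14 sham. The change was -1.56 ± 0.43 in IR (adjusted p = 0.00603) and -1.66 ± 0.45 in MI (adjusted p = 0.00184) on the log2 scale. Endothelial markers summed to a median of 5153 CPM per plate in day 1 sham, 3188 in day 14 sham, 941.04 in day 3 IR and 859 in MI, and fibroblast markers, those of the other class rich in Cxcl12, to 2794, 695, 10760.4 and 14964 CPM. Their part in the change was not tested.

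Between the 2 injuries on day 3, 1 of 10 members differed, where 8.25% of genes rose and 8.94% fell. Cxcl1 was 2.09 ± 0.67 higher in MI (log2, adjusted p = 0.0262), with day 3 IR at 9.52, 54.9 and 242 CPM (lowest, median, highest) and MI at 231, 309, 297, 499.7 and 446 CPM. The call of Cxcl1 was lost when any of 6 plates was left out, day 3 IR replicates 1, 4, 6 and 7 and MI replicates 4 and 5 (adjusted p from 0.051 to 0.083, log2 values from 1.80 to 2.11). Cxcl10 was at -2.14 ± 0.80 and was not called (adjusted p = 0.0634). It was called without day 3 IR replicate 3 (-2.30, adjusted p = 0.045) or replicate 5 (-2.40, adjusted p = 0.041), and Cxcl2, at 1.13 ± 0.74, was called without day 3 IR replicate 3 (2.38, adjusted p = 0.020).

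Within macrophage-like cells the members could be followed from day 1 to day 3. Between day 1 and day 3 of IR, Cxcl2, Cxcl3, Cxcl5, Ppbp and Cxcr2 fell and Cxcl16 rose, where 13.7% of the 5138 genes tested fell and 12.3% rose. These were 9 plates with 105 cells at day 1 and 6 plates with 194 cells at day 3. Most of the day 1 cells were in cluster c3 (83 cells), led by Ccl17, Ccr2 and Cd74 among its genes, and most of the day 3 cells in cluster c2 (158 cells), marked by Gpnmb. Over whole plates, neutrophil markers went from a median of 4882 to 228 CPM between these groups. Neutrophil-like cells went from 106 to 0, and their part in the falls was not tested.

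Cxcl3 in macrophage-like cells ranged from 0 through 802 to 6433 CPM at day 1 and from 0 through 22.9 to 442 CPM at day 3. The change was -5.76 ± 1.27 (log2, adjusted p = 0.0011). Without day 3 IR replicate 3, 4, 5 or 7 the value was -7.36, -4.70, -6.47 or -4.99. In cluster c3 the level of Cxcl3 was 2255 CPM in day 1 IR, 92.5 in day 3 IR and 139 in MI, pooled over cells with no test. Day 3 IR had 21 cells in c3, and day 1 IR replicates 7 and 8 held 810 and 953 macrophage-like UMIs of Cxcl3, at most 98 being found on any other plate of that group.

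Cxcl2 in macrophage-like cells was at 845, 2511 and 4961 CPM (lowest, median, highest) at day 1 and at 10.3, 234 and 2717 CPM at day 3. It fell by 2.60 ± 0.64 on the log2 scale (adjusted p = 0.00283), and by 4.17 without day 3 IR replicate 3, the plate at 2717 CPM. Ppbp fell by 3.33 ± 1.05 (adjusted p = 0.0182), was at -5.25 without day 3 IR replicate 3, and was no longer called without day 3 IR replicate 4 (adjusted p = 0.080), 6 (0.052) or 7 (0.080). Cxcl5, a minor product of these cells, went from 99 to 3 UMIs. Its day 1 level was 66.5 times its day 3 level (95% counting interval 22.1 to 328), with 67.7% of the day 1 UMIs in 1 well. That ratio was 21.5 without day 1 IR replicate 7, and 38.1 and 140.7 without day 3 IR replicate 4 and 7. Its fitted value was -5.81 ± 1.46 (adjusted p = 0.00366), and -4.45, -5.17 and -6.72 without day 1 IR replicate 7, day 3 IR replicate 4 and day 3 IR replicate 7. Cxcl1 was at -1.76 ± 1.02 (adjusted p = 0.218) and was called without day 3 IR replicate 3 (-2.69, adjusted p = 0.042).

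Cxcl16 went the other way. In macrophage-like cells it was at 40.5, 104 and 131 CPM (lowest, median, highest) at day 1 of IR, at 70.5, 218 and 464 CPM at day 3 of IR and at 260.0, 175, 218, 245 and 271 CPM in MI. Every MI plate lay above every day 1 IR plate, while day 1 and day 3 IR overlapped, day 3 replicate 1 (70.5 CPM) lying below 7 of the 9 day 1 plates. The rise from day 1 IR was 1.26 ± 0.27 to day 3 IR (adjusted p = 0.000732) and 1.32 ± 0.25 to MI (adjusted p = 0.000933) on the log2 scale. The 3 day 1 sham plates with enough such cells were at 244, 185 and 206 CPM.

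Pf4 had the highest level of the members in these cells over all groups (2695 CPM) and was not called in any of the comparisons among them, but was called lower at day 3 than at day 1 of IR without day 1 IR replicate 2 (-0.87, adjusted p = 0.034). It was at 2165, 4129.6 and 2587 CPM in day 1 sham and at 109.6, 2366 and 5656 CPM (lowest, median, highest) in day 1 IR. It was at 1494, 1948 and 2199 CPM in day 3 IR and at 2746, 3274, 2452, 3293 and 2120.1 CPM in MI. The values overlapped in all groups. The rise of Pf4 in sums over whole plates thus stood beside macrophage markers that summed to a median of 1525 CPM per plate in day 1 sham, 80.3 in day 14 sham, 8373 in day 3 IR and 5596 in MI. The part of cell number in that rise was not tested.

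**Figure D4:**
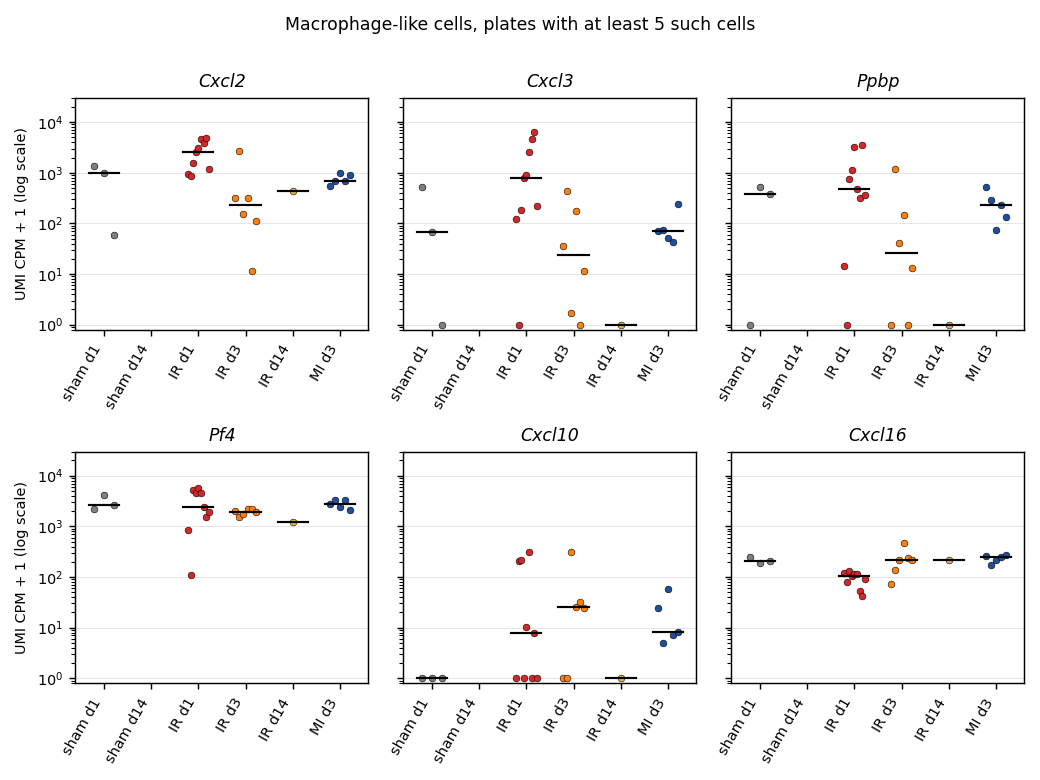
Level of 6 ligands in macrophage-like cells in UMI CPM plus 1 on a log scale, 1 point per plate with at least 5 such cells, and the group median as a bar. Cxcl2, Cxcl3 and Ppbp are highest on day 1 IR plates, Cxcl16 is lower there than on every MI plate and overlaps with day 3 IR, and Pf4 has overlapping values in all groups; day 14 sham had no such plate.

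Against day 1 IR, MI macrophage-like cells (283 cells on 5 plates, 144 in c3, 114 in c2 and 23 in c16) had lower Cxcl3 (-4.28 ± 1.01, log2, adjusted p = 0.00842) and Cxcl5 (-2.56 ± 0.78, adjusted p = 0.0441) and the higher Cxcl16 given above, where 3.11% of genes fell and 3.5% rose. Cxcl3 was at -3.68 without day 1 IR replicate 8 and at -4.96 without MI replicate 5. The call of Cxcl5 was lost without any of day 1 IR replicates 5, 7, 8 and 9 or MI replicates 1 to 4, with values from -3.01 to -1.16. Cxcl2 was at -1.76 ± 0.61 (adjusted p = 0.0764).

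Against day 3 IR, MI macrophage-like cells had lower Cxcl10 and higher Cxcr2, where 3.52% of genes fell and 5.22% rose. Cxcl10 was at -2.65 ± 0.75 (log2, adjusted p = 0.0258), but the value was -0.24 (adjusted p = 0.95) without day 3 IR replicate 4, which held the well with 72.7% of the group's UMIs. That call was also lost without MI replicate 1, 2, 4 or 5 (-2.65 to -2.29), and the value was -3.48 without MI replicate 3. Cxcr2 was 1.55 ± 0.31 higher (adjusted p = 0.00141), with MI at 65.5, 58.5, 85.4, 74.4 and 82.8 CPM and day 3 IR at 0 to 41.1 CPM. On whole plates the Cxcr2 medians were 62.1 CPM in MI and 38.3 in day 3 IR, and the part of free RNA was not tested. Cxcl2 was at 0.84 ± 0.67 and was called without day 3 IR replicate 3 (2.41, adjusted p = 0.0065).

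Day 1 IR was set against day 1 sham (3 plates with 7 such cells each) in a comparison added after the data had been seen. In macrophage-like cells 1 of the 10 members was called, Cxcr2, where 1.69% of genes fell and 0.817% rose. At an unadjusted p under 0.05 there were 4 members, and DESeq2 called 2, both lower. The difference of Cxcr2 was -1.84 ± 0.38 (log2, adjusted p = 0.00598), a call lost without day 1 sham replicate 2 (-1.64, adjusted p = 0.067) or 4 (-1.59, adjusted p = 0.097). Its medians were 290 CPM in day 1 sham and 71.9 in day 1 IR, against 296 and 291 on whole plates. The part of free RNA was not tested. The Cxcr2 ligands were not called: Cxcl2 differed by 1.68 ± 0.78 and Cxcl3 by 3.13 ± 1.31. Cxcl16 was not called, though its sham plates (244, 185 and 206 CPM) lay above all 9 day 1 IR plates (40.5 to 131 CPM). The 22 day 1 sham cells were spread over c3 (8 cells), c2 (8) and c15 (6), whereas 83 of 105 day 1 IR cells were in c3. Day 1 sham macrophage-like cells held Cxcl2 at 1372, 1007 and 58.8 CPM.

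Ppbp and Pf4 are the platelet chemokines, and most macrophage-like cells had a Pf4 UMI with or without Ppbp. Of 41 such cells with a Ppbp UMI in day 1 IR, 35 had a Pf4 UMI, against 78 of all 105 cells. In MI 160 of 163 such cells had one, against 273 of all 283. The 10 markers of the platelet list, other than these genes, summed to 9.90 CPM in macrophage-like cells with 2 of the 10 at 0. On no plate of any group did they sum to more than 61.5 CPM. Of Ppbp, 36.9% of the macrophage-like cells had a UMI (10.4% when thinned to 1000 UMIs), against 1.80% (0.616%) of cardiomyocyte-like cells, whose median depth was 2852.5 UMIs against 12258.

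Neutrophil-like cells were found at day 1 of IR (106 cells) and in MI (51 cells), with 1 cell in day 1 sham and 0 in the other groups. They had the highest Cxcl2 level of any class, at 1984, 8354 and 17304 CPM (lowest, median, highest) on the 9 day 1 IR plates and at 2099 to 6300.1 CPM (median 3081) on the 5 MI plates. The ranges overlapped. The difference, MI less day 1 IR, was -1.11 ± 0.44 (log2, adjusted p = 0.0814) in a comparison added after the data had been seen, and -1.23 (adjusted p = 0.038) and -1.24 (adjusted p = 0.033) without day 1 IR replicate 2 or 3. Of the 2 members tested, Cxcl2 and Cxcr2, 0 were called (17.3% of genes were called), with 1 at an unadjusted p under 0.05 and 0 by DESeq2. A single well held 25.6% of the day 1 Cxcl2 UMIs.

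Fibroblast-like cells held the largest share of Cxcl1 and Cxcl5 over all groups. In day 1 IR, 585 of 1168 Cxcl1 UMIs lay in fibroblast-like cells of plates with enough of them, and 177 in macrophage-like cells. Cxcl5 was at 0, 29.7 and 0 CPM on 3 day 1 sham plates, at 369, 2424, 1684, 9465 and 3985 CPM on 5 day 1 IR plates, at 39.4, 1147, 969 and 27.0 CPM on 4 day 3 IR plates, and at 346, 132, 383, 750.3 and 724 CPM in MI. All 5 day 1 IR plates lay above all sham plates. In a comparison added after the data had been seen, Cxcl5 rose by 7.91 ± 1.51 (log2, adjusted p = 0.000938) against day 1 sham, where 11.5% of the 5973 genes tested rose and 8.09% fell. The sham level rested on 2 UMIs, and the ratio of pooled levels was 210.1 (95% counting interval 58.1 to 1736), or 108 without day 1 IR replicate 7 and at least 65.5 without day 1 sham replicate 3. The value was 13.61 without day 1 sham replicate 3, which leaves sham at 0, and 7.08 without day 1 IR replicate 7, and 1 well held 53.5% of the day 1 UMIs.

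Cxcl1 in fibroblast-like cells was present already in sham. It was at 982, 253 and 1163 CPM in day 1 sham and at 525.7, 1568, 1242, 212 and 1899 CPM in day 1 IR, with overlap, and differed by 0.64 ± 0.73 (log2, 95% interval -0.79 to 2.06, adjusted p = 0.569). Of these cells, 60.6% had a Cxcl1 UMI (28.2% thinned, median depth 17167.5 UMIs), against 2.36% (0.678%) of cardiomyocyte-like cells. Pf4 was called higher in day 1 IR, at least 10.4-fold against 0 UMIs in sham (adjusted p = 0.0324), or at least 4.98-fold without day 1 IR replicate 5, which held 89 of the 151 UMIs, and 4.84-fold without day 1 sham replicate 3. The 1 day 14 sham plate with enough such cells, replicate 8, held 19 Pf4 UMIs (372 CPM), above 4 of the 5 day 1 IR plates. Macrophage markers, those of the class that held most Pf4, summed to a median of 1525 CPM per plate in day 1 sham and 3400.2 in day 1 IR, and their part in this result was not tested. That call was lost without day 1 IR replicate 5 (adjusted p = 0.065) or without day 1 sham replicate 1, 3 or 4 (adjusted p = 0.086, 0.14 and 0.082). The sham cells were all in cluster c14 and 40 of the 50 day 1 IR cells in cluster c7.

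Between MI and day 3 IR, 0 of 9 members tested differed in fibroblast-like cells, where 8.37% of genes were called, with 2 at an unadjusted p under 0.05 and 1 called by DESeq2 (Cxcl2, 2.24 ± 0.71 on the log2 scale, adjusted p = 0.0534 in edgeR). Cxcl2 was called without MI replicate 5 (2.39, adjusted p = 0.040). Against day 1 IR, in an added comparison, MI fibroblast-like cells had lower Cxcl5 (-2.92 ± 0.73, log2, adjusted p = 0.0159; -2.09, adjusted p = 0.066, without day 1 IR replicate 7) and Cxcl3 (-3.16 ± 0.93, adjusted p = 0.0434), where 3.42% of genes fell and 4.39% rose. Cxcl3 rested on day 1 IR replicate 5 (801 CPM): without it the value was -1.31 (adjusted p = 0.51). Its call was also lost without day 1 IR replicate 6 or any of MI replicates 1 to 4 (-3.19 to -2.85), and the value was -4.38 without MI replicate 5.

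Endothelial-like cells carried Cxcl12. It was at 1352, 1052, 924 and 1297 CPM on the day 1 sham plates, at 929, 1000.3, 3167 and 717 CPM on 4 day 14 sham plates, and at 589, 149.99, 321, 315 and 24.97 CPM in MI. All MI plates lay below all sham plates. The change was -2.14 ± 0.41 (log2, adjusted p = 8.88e-05). Of the 5 members tested, Cxcl12 and Cxcr2 (-2.19 ± 0.56, adjusted p = 0.00212) fell and Cxcl2 rose (2.91 ± 0.85, adjusted p = 0.0071; 4.41 without day 14 sham replicate 8), where 19% of the 3267 genes tested fell and 19% rose. Against day 14 sham alone the calls of Cxcl2 (2.45, adjusted p = 0.11) and Cxcr2 (-1.68, adjusted p = 0.053) were lost. Cxcr2 also fell over whole plates (-3.32 ± 0.77, log2), and the part of free RNA in its endothelial-like fall was not tested.

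The endothelial-like cells of the groups lay in different clusters, c5 and c11 in sham and c12 in MI (51 of 57 cells). Pooled over cells, Cxcl12 was at 1289 CPM in c5 and 223 in c11 in day 1 sham, and in c12 it was at 1033 CPM in day 1 IR, 2208 in day 3 IR (12 cells) and 338 in MI. Sham had 4 cells (day 1) and 2 cells (day 14) in c12, and no test was run within clusters. Cxcl12 UMIs of the MI group came mostly from fibroblast-like cells (70.8%), with 17.2% from endothelial-like cells.

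At day 1 of IR, Cxcl2 and Ppbp rose in endothelial-like cells and none of the 5 members tested fell, where 6.12% of genes rose and 9.31% fell. Cxcl2 had 2 UMIs on the 4 sham plates and 107 on the 8 IR plates, a ratio of 67.5 (95% counting interval 18.2 to 564), and Ppbp 3 and 35 UMIs, a ratio of 14.7 (4.64 to 74.8). The adjusted p was 0.000312 for Cxcl2 and 0.0181 for Ppbp, the latter 0.056 without day 1 sham replicate 2. The ratio of Cxcl2 was 108.9 without day 1 sham replicate 2, and that of Ppbp 7.21 without day 1 IR replicate 8 and 24.8 without day 1 sham replicate 3. A single well held 56.1% of the IR Cxcl2 UMIs. Of the day 1 IR cells 40 of 76 were in c12, against 4 of 119 in day 1 sham. Over whole plates, neutrophil markers went from a median of 85.6 to 4882 CPM and macrophage markers from 1525 to 3400.2 CPM between these groups, and their part in the rise was not tested. Cxcl12 differed by 0.17 ± 0.40 (log2, 95% interval -0.62 to 0.96). At day 14 of IR, 0 of 5 members were called, where 0% of genes were, with 2 at an unadjusted p under 0.05 and 0 by DESeq2. The day 1 and day 14 effects differed for 0 of 5 members (3.15% of genes), with 3 at an unadjusted p under 0.05 and 1 by DESeq2 (Cxcl2).

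Cxcr2 is the neutrophil receptor, yet its UMIs did not follow the neutrophil markers. Neutrophil-like cells held it at 898, 1483 and 2868 CPM (lowest, median, highest) at day 1 of IR and at 1017 to 1453 CPM (median 1126) in MI, and 87.3% of them had a UMI (69.3% thinned), against 16.3% (6.70%) of cardiomyocyte-like cells. A higher level, 2362 CPM, was found in cluster c9, an unnamed cluster of 162 wells with no more than 1 marker of any list raised, with B020014A21Rik and Vmn2r55 among its leading genes. There, 148 of the 162 wells had a Cxcr2 UMI while the 10 neutrophil markers summed to 521 CPM. Cardiomyocyte markers summed to 11732 CPM in c9 and endothelial markers to 1666 CPM. Its wells had a median of 355.5 genes at 2005 UMIs in day 14 sham and 1349 genes at 3920 UMIs in day 14 IR. This cluster held 33.9% of all Cxcr2 UMIs and neutrophil-like cells 12.8%.

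**Figure D5:**
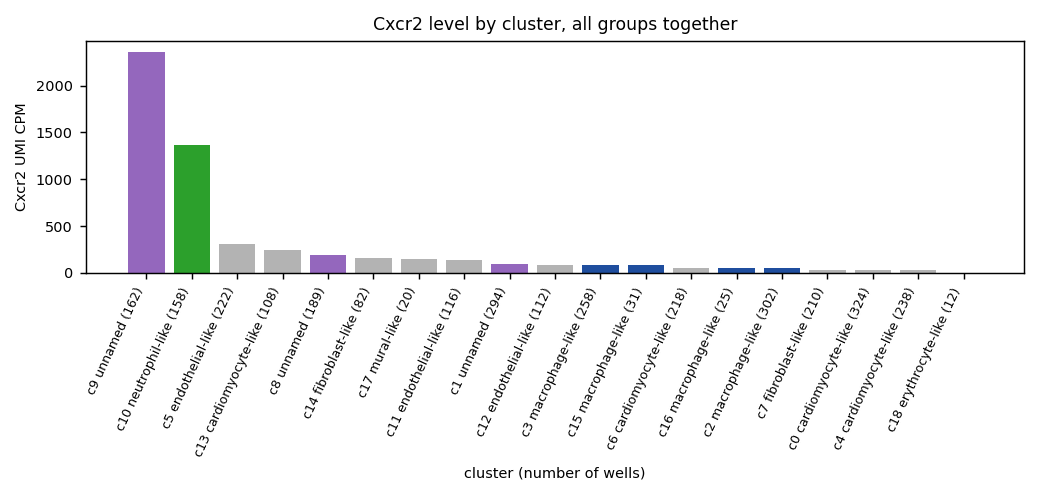
Cxcr2 level (UMI CPM, all groups together) in each cluster, ordered from high to low, with the number of wells in brackets; purple bars are unnamed clusters, green the neutrophil-like, blue the macrophage-like and grey other clusters. The unnamed cluster c9 (2362 CPM) and the neutrophil-like cluster c10 (1368 CPM) stand above all others.

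The part of c9 in each group's Cxcr2 was 28.1% in day 1 sham, 74.4% in day 14 sham, 32.7%, 34.0% and 63.5% in IR at day 1, 3 and 14, and 0.439% in MI, where it held 2 wells. On whole plates, Cxcr2 was at 314, 402, 277 and 266 CPM in day 1 sham and at 218, 291 and 459.7 CPM (lowest, median, highest) in day 1 IR, where neutrophil markers were far higher. It was at 43.5, 175 and 1844 CPM in day 14 sham, where replicates 3 and 4 held 1661 and 1844 CPM on 23 and 20 wells and the other plates at most 186 CPM, at 149.7, 750.4 and 497 CPM in day 14 IR, at 21.2, 38.3 and 343 CPM in day 3 IR and at 51.3, 56.8, 81.3, 81.9 and 62.1 CPM in MI. The MI plates lay below every day 1 sham plate. The change was -2.87 ± 0.74 in day 3 IR (adjusted p = 0.00323; -4.31 without day 3 IR replicate 6) and -3.32 ± 0.77 in MI (adjusted p = 0.000429) on the log2 scale, and the IR call was lost against day 1 sham alone (-2.10, adjusted p = 0.060). Without day 14 sham replicate 3 or 4 the value was -2.34 or -2.48 in IR and -2.90 or -3.03 in MI.

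Leaving out c9, an alternative chosen after the data had been seen, moved the Cxcr2 results. The change in MI against sham became -1.46, the difference between MI and day 3 IR went from -0.45 to 0.85 (adjusted p = 0.047), and that between the day 1 and day 14 effects of IR from 0.53 to -1.49 (adjusted p = 0.0115). Whether counting used the strand is not given in the sources used here, and without it reads of Cxcr2 and of an overlapping transcript cannot be told apart.

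The genes whose pattern was most like each member's were sought over 27 sums of a class in a group, by Pearson's r of log2(CPM + 10) across 11694 genes, as a description; sums of a group share plates. Cxcl2 was nearest to Il1b (r = 0.96), Il1rn and Cd300lf, Cxcl3 to Cxcl2 (0.85), Il1rn and Osm, and Ppbp to Osm (0.89) and Chi3l3. Pf4 was nearest to Ifi30 (0.94), Slc7a8 and Ms4a6d, Cxcl16 to Prdx1 (0.92), Blvrb and Cndp2, and Cxcl10 to Naip6 (0.78), Glipr1 and Itgax. The fibroblast members were nearest to Pdgfra (0.92), Axl and Ugdh for Cxcl1 and to Ereg (0.93), Twist1 and Tnc for Cxcl5. Cxcl12 was nearest to Cav1 (0.94), Ramp2 and Hdac7. Cxcr2 was nearest to Aplf (0.95), Gm19757 and E330020D12Rik.

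Other genes of the CXC system were read beside the members, 6 of the 16 listed being tested over whole plates. Cxcr4, the receptor of Cxcl12, rose in day 1 IR (2.33 ± 0.45, adjusted p = 8.95e-05), day 3 IR (2.21 ± 0.40) and MI (2.69 ± 0.38) on the log2 scale. Its level was 1286 CPM in neutrophil-like, 209.6 in macrophage-like and 74.7 in endothelial-like cells. Cxcl9, another interferon-induced ligand of Cxcr3, fell in the same 3 comparisons (-2.42 ± 0.53, -1.66 ± 0.51 and -4.20 ± 0.49), while Cxcl10 rose. Endothelial-like cells held 54.1% of Cxcl9 UMIs and macrophage-like cells 20.2%, while macrophage-like cells held 85.1% of Cxcl10. Cxcl9 had 43 and 33 UMIs in day 1 and day 14 sham, and 17, 37 and 27 in day 1 IR, day 3 IR and MI. Endothelial markers had plate medians of 5153 and 3188 CPM in day 1 and day 14 sham. They were at 2050, 941 and 859 CPM in day 1 IR, day 3 IR and MI, and their part was not tested. The decoy receptor Ackr3, named Cxcr7 in the tables, fell over whole plates in day 3 IR (-1.96 ± 0.45) and MI (-1.58 ± 0.37). Within classes at day 1 of IR, Ackr3 (Cxcr7) rose in endothelial-like cells (1.47 ± 0.50, adjusted p = 0.0387), which held it at 106 CPM over all groups, and fell in fibroblast-like cells (-3.00 ± 0.48, adjusted p = 0.00018). The sheddase Adam17 rose in day 3 IR (0.85 ± 0.27), and Adam17 (0.63 ± 0.25), Adam10 (1.01 ± 0.24) and Cxcl14 (1.69 ± 0.57) rose in MI. Between MI and day 3 IR, Cxcl14 was higher (2.12 ± 0.68) and Cxcl9 lower (-2.55 ± 0.56), and at day 14 none of the 6 was called. Cxcr3 and Ackr1, named Darc in the tables, had 30 and 38 UMIs in all.

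A list of 22 genes of the inflammatory early response, many of them targets of NF-kappaB, had 21 tested members, of which 19 rose at day 1 of IR, 7 at day 3, 0 at day 14 and 18 in MI, where 18.3%, 16.3%, 0.0216% and 31.8% of all genes rose, and none fell. Their median log2 fold change was 2.38, 1.24, 0.38 and 1.86, against 0.06, 0.03, 0.20 and 0.18 for all genes. At day 1, the smallest adjusted p-values were those of the prostaglandin synthase Ptgs2 (4.75 ± 0.65), Tnfaip2 (2.38 ± 0.39), Tnf (4.18 ± 0.70) and Il1b (4.07 ± 0.70). A list of 20 interferon-stimulated genes had 18 tested, of which 3 fell at day 1 (Gbp2, Rsad2 and Irf1), 4 rose at day 3 of IR (Oasl2, Mx1, Ifit2 and Usp18), 0 changed at day 14 and 9 fell in MI. Of all genes 17.2% fell at day 1, 16.3% rose at day 3 of IR and 23.8% fell in MI, so that the interferon counts at day 1 and day 3 of IR were near the share over all genes. Between MI and day 3 IR, 11 of the 18 were lower, led by Cmpk2 (-2.77 ± 0.48) and Ifit2 (-2.19 ± 0.43), and 7 of the 21 early response genes were higher, where 8.94% of all genes were lower and 8.25% higher. In macrophage-like cells, 13 of 19 tested early response genes fell between day 1 and day 3 of IR, Il1b by 3.85 ± 0.46, while 6 of 13 interferon-stimulated genes rose, where 13.7% of all genes fell and 12.3% rose.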

How the data were processed

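Cells of the infarcted region of the left ventricle, or of the matching region of sham hearts, had been sorted by scatter into plates. Each well had 1 barcode, and transcripts were sequenced from the 3′ end with a UMI of 6 bases (SORT-seq). Per the labels and the study's methods, the authors aligned reads with BWA to GRCm38 (mm10), and the deposited tables hold raw UMI counts per gene and well, 1 table per plate. All values read were whole numbers. Total UMIs per plate ran from 176614 to 5551870. Here, spike-in and mitochondrial rows were removed, and wells under 1000 UMIs and wells copied between plates were left out. No doublet caller was run, so wells that hold more than 1 cell or free RNA were not removed. Wells were clustered without the members and listed genes (scanpy 1.11.5, leidenalg 0.10.2) and named from marker lists. Wells with lymphocyte markers (10) were set apart after the data had been seen. Counts were summed per plate, over all wells (plates of at least 10 wells) or per class (at least 5 cells), and tested across all genes with edgeR 4.0.16 (filterByExpr, TMM, quasi-likelihood test, R 4.3.3) with Benjamini-Hochberg adjustment and a threshold of 0.05. All groups shared 1 estimate of the spread, and day 14 sham replicates 2 and 7 were averaged. DESeq2 1.42.0, RLE scaling, no filter, other depth and cell minimums and each plate left out were the alternatives. Folds against groups of few UMIs were also taken with each plate left out, a choice made after the data had been seen. Intervals of ratios and the limit of 3 counts cover counting error only. The script was tested on simulated data. The rule for named genes took the 10 members, every gene of the other CXC list that passed (at most 6 a comparison), at most 4 genes of smallest adjusted p from each other list, and the 3 genes most like each member. Of these, 1 gene is not reported here. Genes named as leading a cluster were chosen after their values were seen. The members and lists were chosen with earlier results of these data known.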

Additional observations from a re-analysis of the deposited data

Results flagged for a closer look

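In 12 of 47 sets of plates of 1 group and member, the highest or lowest plate lay apart from the others by Dixon's 95% limit, where chance gives about 1 in 20. Day 3 IR replicate 3 stood high for Cxcl2 (840.3 CPM), Cxcl3 (137 CPM) and Ppbp (368 CPM). Day 3 IR replicate 6 stood high for Cxcr2 (343 CPM) and low for Cxcl12 (38.1 CPM), and replicate 4 stood high for Cxcl10 (159 CPM). In day 1 IR, replicate 8 stood high for Cxcl3 (3378 CPM) and replicate 7 for Cxcl5 (2446 CPM). Cxcl3 was also high in MI replicate 5 (133 CPM) and in day 1 sham replicate 2 (85.2 CPM). Day 14 sham replicate 6, a plate of 10 wells, stood high for Pf4 (758 CPM) and Cxcl2 (117 CPM).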

How the results depend on the processing

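Over all alternatives, 3289 values of single members counted as the same, 80 moved, 67 lost a call, 61 gained one and 5 reversed. The same means called in both settings with the same sign, or called in neither and apart by less than the main SE (or with no SE). Values that moved were called in neither and lay farther apart. A reversal was counted only where either setting called the member, so signs of values called in neither were not compared. The cause was not tested for those that changed. In all cells, the members called in day 3 IR against sham numbered 4 (7 in the main result) against day 1 sham alone. Those in MI against day 3 IR numbered 2 (1) with no filter, 2 with copied wells kept and 3 with cluster c9 left out, where Cxcr2 reversed to 0.85. Those of the day 1 against the day 14 effect numbered 3 (0) with DESeq2, 1 with copied wells kept and 1 with c9 left out, where Cxcr2 reversed to -1.49. In macrophage-like cells, MI against day 1 IR gave 7 (3) with no filter and 5 with at least 10 cells per plate, MI against day 3 IR 1 (2) with DESeq2 and 4 with no filter, and day 1 IR against sham 2 (1) with DESeq2, 7 with no filter and 2 with at least 2000 UMIs per well. In endothelial-like cells, day 1 IR gave 4 (2) with no filter, MI 1 (3) against day 14 sham alone, and the day 1 against the day 14 effect 1 (0) with DESeq2 and 2 with no filter. In fibroblast-like cells, MI against day 3 IR gave 1 (0) with DESeq2, 4 with no filter and 1 without Rn45s, and day 1 IR against sham 4 (2) with no filter. MI against day 1 IR gave 1 (2) with DESeq2, 4 with no filter, 1 with at least 1 cell per plate and 0 with at least 10. That minimum leaves 1 day 1 IR plate, replicate 3, which had the lowest Cxcl5 of its group, so the values there (Cxcl3 1.78, Cxcl5 0.37, signs reversed) follow from that choice and say nothing of stability. In neutrophil-like cells the count was 3 (0) with no filter and 2 with at least 1 cell per plate. Scaling each well to 1000 UMIs, the mean of thinning, moved the share of the leading class to 33.2% for Cxcl2, where neutrophil-like cells then led, 73.5% for Cxcl5, 61.3% for Ppbp and 69.4% for Cxcl16.

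With 1 plate left out, counts in all cells ran from 4 to 7 for day 1 IR, 6 to 7 for day 3 IR, 0 to 0 for day 14 IR, 9 to 10 for MI, 0 to 3 for MI against day 3 IR and 0 to 1 for the day 1 against the day 14 effect. In macrophage-like cells they ran from 5 to 7 (day 3 against day 1 IR), 2 to 3 (MI against day 1 IR), 1 to 3 (MI against day 3 IR) and 0 to 1 (against sham). In endothelial-like cells they ran from 1 to 2 (day 1), 0 to 0 (day 14), 3 to 3 (MI) and 0 to 0 (effects), in fibroblast-like cells from 0 to 1 (MI against day 3 IR), 1 to 2 (day 1) and 1 to 2 (MI against day 1 IR), and in neutrophil-like cells from 0 to 1.

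Plates of different groups share replicate numbers. Of 59 same-number pairs over all cells, 9 had a correlation of deviations over 0.1 (median -0.00, highest 0.34). Pairs of other numbers had a median of 0.00. Medians cannot show whether some plates of the same number share a mouse. With a replicate block the members called were 4 in day 1 IR, 8 in day 3 IR, 10 in MI, 2 in MI against day 3 IR, 1 in macrophage-like MI against day 1 IR (where Cxcl5 reversed to 0.51), 1 in endothelial-like day 1 IR and 0 in fibroblast-like MI against day 1 IR. The block moved the genes called from 1636 to 1001 (day 1 against day 14 effect), 504 to 268 and 103 to 4 (endothelial-like, day 1 and effects), 1170 to 277, 262 higher and 204 lower to 32 in all, and 500 to 129 (fibroblast-like, day 1, MI against day 1 and day 3 IR), and 129 to 47, 1336 to 818, 340 to 97 and 449 to 209 (macrophage-like, day 1 against sham, day 3 against day 1 IR, MI against day 1 and day 3 IR). In day 14 IR it gave 0 of all genes against 2.

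Counts of all genes also moved by over 1.5 times with no filter (endothelial-like MI 1243 to 2097, day 14 IR 0 to 14 and effects 103 to 200, fibroblast-like MI against day 1 IR to 907 and against day 3 IR 500 to 912, macrophage-like 129 to 227, 340 to 981 and 449 to 926), with DESeq2 (the same to 938 and 500 to 962, and macrophage-like 129 to 264), with at least 10 cells per plate (the same to 1, with that lone plate, and 500 to 1329, macrophage-like 340 to 531 and 449 to 849, and neutrophil-like 88 to 19), with at least 1 cell (fibroblast-like 1170 to 730, and the same to 140 and 500 to 193), and for endothelial-like effects with 2000 UMIs (59) or clustering with the listed genes (48). In day 14 IR over all cells the count was 2 and ran from 0 to 4. RLE scaling moved the percent of calls that were higher from 25.9 to 39.0 (day 1 against day 14 effect), 13.6 to 23.8 (the same, endothelial-like), 56.2 to 39.4 and 38.2 to 26.5 (fibroblast-like MI against day 1 and day 3 IR), 32.6 to 19.5 (macrophage-like day 1) and 59.7 to 48.0 (macrophage-like MI against day 3 IR). Depth limits the sham and IR values, where a difference of a member with few UMIs could go unseen.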
